A study of Mus musculus with 54 samples.

Results

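The genes of MHC class I antigen presentation and of the immunoproteasome were followed in 2 populations of CNS macrophages, microglia (MG) and the subdural CNS-associated macrophages (sdCAMs), sorted from mouse brain without choroid plexus. The set was chosen by gene symbol. It held 10 members, B2m, H2-K1, H2-D1, Tap1, Tap2, Tapbp, Psmb8, Psmb9, Psmb10 and Nlrc5, of the 33280 gene symbols in the count tables. All 10 were found in every table and passed the filter on low counts in each comparison.

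MHC class I molecules carry peptides of cytosolic proteins to the cell surface, where CD8+ T cells read them. The heavy chains H2-K1 and H2-D1 fold with the light chain B2m, the transporter Tap1-Tap2 moves peptides into the endoplasmic reticulum, and Tapbp (tapasin) holds the empty heavy chain at the transporter. Psmb8, Psmb9 and Psmb10 replace the constitutive catalytic subunits of the proteasome and so make the immunoproteasome, and Nlrc5 is a transactivator that works at class I promoters. Interferons and other inflammatory signals are known to raise many of these genes in macrophages.

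The series held 54 bulk RNA-seq libraries in 18 groups of 3 mice. Wild type (WT) and Ccr2 KO (Ccr2-/-) mice were either left untreated and injected with PBS, given vehicle and then LPS (CTL), or given BLZ945, a CSF1R inhibitor that depletes CNS macrophages, and then LPS. Mice of the genotype Ccr2CreERT2/CreERT2:R26tdT/tdT (Ccr2Cre) all received BLZ945 and tamoxifen, then PBS or LPS, and their sdCAMs were sorted by the tdTomato reporter into tdT+ and tdT- cells. Injections were given 8 weeks after the treatment, and cells were taken 12 hours later. The labels gave no age.

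These groups have limits as models. In WT and Ccr2-/- mice the LPS comparison set vehicle plus LPS against untreated plus PBS, so the vehicle and LPS cannot be told apart. CreERT2 is driven from the Ccr2 gene, so tdT marks cells that had expressed Ccr2 at the time of tamoxifen and their progeny, and both Ccr2 alleles of these mice carry CreERT2. Ccr2-/- mice have few circulating monocytes. The labels put WT and Ccr2-/- libraries in batch 1 and Ccr2Cre libraries in batch 2, so genotype line and batch cannot be told apart. In bulk samples, fewer cells of a type and less RNA per cell cannot be told apart either.

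Promoter sequences are shown for the light chain, both classical heavy chains and Tap1, since the first 3 share an arrangement of motifs and Tap1 changed most in Ccr2-/- sdCAMs. They are RefSeq sequences of build GRCm38.p6, with 250 bases before and 50 after the start site, written 5′ to 3′ on the strand of the gene. Capitals mark matches, on either strand, to the interferon-stimulated response element (ISRE, GAAANNGAA), the gamma-activated site (TTCNNNGAA), the NF-kappaB motif, the Y box (CCAAT) and the core of the X2 box (TGACG). The reverse complement of the Y box reads ATTGG.
B2m, chr2:122147437-122147736, plus strand: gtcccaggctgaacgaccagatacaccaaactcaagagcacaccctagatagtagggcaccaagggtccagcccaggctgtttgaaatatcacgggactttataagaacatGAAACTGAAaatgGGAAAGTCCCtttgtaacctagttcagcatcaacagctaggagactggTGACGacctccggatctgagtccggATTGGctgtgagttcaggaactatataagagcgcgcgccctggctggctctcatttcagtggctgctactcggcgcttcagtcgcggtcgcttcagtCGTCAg
H2-K1, chr17:34000298-34000597, minus strand: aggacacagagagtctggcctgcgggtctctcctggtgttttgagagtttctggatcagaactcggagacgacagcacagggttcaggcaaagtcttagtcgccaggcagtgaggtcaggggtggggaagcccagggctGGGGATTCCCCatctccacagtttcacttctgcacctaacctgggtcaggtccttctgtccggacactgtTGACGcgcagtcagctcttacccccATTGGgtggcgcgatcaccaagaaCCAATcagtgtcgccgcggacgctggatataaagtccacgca
H2-D1, chr17:35262844-35263143, plus strand: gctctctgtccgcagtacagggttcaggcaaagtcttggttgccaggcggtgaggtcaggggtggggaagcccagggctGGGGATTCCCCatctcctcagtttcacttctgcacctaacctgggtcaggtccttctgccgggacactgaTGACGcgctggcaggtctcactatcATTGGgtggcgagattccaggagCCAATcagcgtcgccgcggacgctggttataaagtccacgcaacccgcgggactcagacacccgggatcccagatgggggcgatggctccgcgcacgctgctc
Tap1, chr17:34187306-34187605, plus strand: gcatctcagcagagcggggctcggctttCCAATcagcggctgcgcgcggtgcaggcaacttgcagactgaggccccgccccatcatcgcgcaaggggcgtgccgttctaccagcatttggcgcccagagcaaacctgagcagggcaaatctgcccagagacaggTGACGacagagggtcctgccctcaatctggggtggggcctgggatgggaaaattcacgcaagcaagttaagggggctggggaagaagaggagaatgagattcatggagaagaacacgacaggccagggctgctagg

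B2m, H2-K1 and H2-D1 each held TGACG followed 25 bases on, start to start, by ATTGG. That pair began 78 bases before the start site in B2m, 41 in H2-K1 (55 from its second listed start site) and 101 in H2-D1. It occurred in 31 of 32851 RefSeq promoter windows of the same length (0.0944%), with the spacing chosen after these sequences were seen. The heavy chains also shared an NF-kappaB match, which began 111 bases before the start site in H2-K1 (125 from the second) and 171 in H2-D1. B2m held such a match 126 bases before its start site, with an ISRE match beginning at 139. The heavy chain windows held no match to the ISRE as written here, and variants of that pattern were not searched. Of all windows, 8.56% held the ISRE, 8.30% the gamma-activated site, 8.46% the NF-kappaB motif, 37.4% the Y box and 20.8% the X2 core. A match is a description of letters and not evidence of binding.

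Windows were listed for 8 of the 10 members, Tap2 and Nlrc5 being the exceptions. The start sites of Tap1 and Psmb9 lay 226 bases apart on opposite strands, and their windows shared 275 bases, so the X2 core and the Y box of one are also those of the other. Psmb8 held 1 gamma-activated site match, beginning 97 bases before its start site, Tapbp held 2 Y boxes, and Psmb10 held no match. In the same build 7 members lie on chromosome 17, B2m lies on chromosome 2, and Psmb10 and Nlrc5 lie on chromosome 8.

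**Figure D1:**
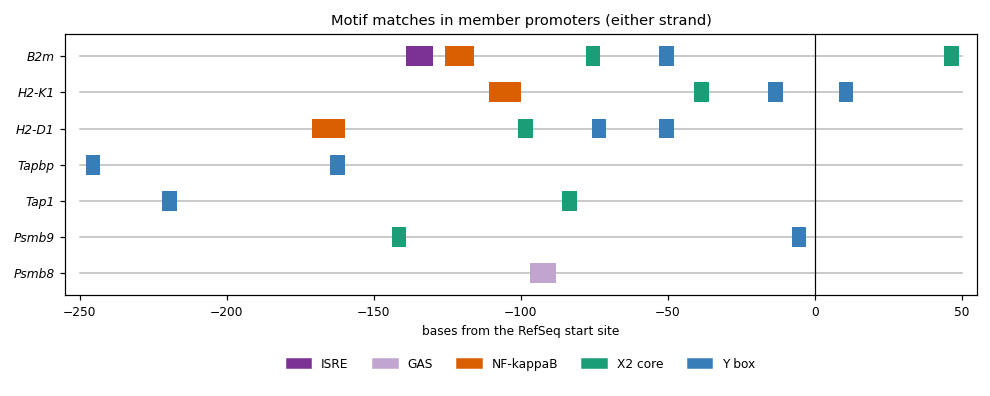
Matches to 5 motifs in the promoter windows of 7 members, by distance in bases from the RefSeq start site (vertical line), with colour giving the motif. For H2-K1 the first listed start site is drawn. B2m, H2-K1 and H2-D1 each show an X2 core with a Y box 25 bases further on, and Psmb10, with no match, is not drawn.

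Total counts per library ranged from 1705930 to 11330781, and the lowest totals were those of WT sdCAMs. Microglia markers (P2ry12, Tmem119, Sall1, Siglech) summed to 14401 to 21451 TMM CPM (counts relative to the library total, scaled by the trimmed mean of M values over all 54 libraries) in MG after PBS and to 1672 to 4964 after LPS, against 142 to 5308 in sdCAMs. Markers of sdCAMs (Mrc1, Cd163, Lyve1, Pf4, Ms4a7) summed to 502 to 21933 in sdCAMs and to at most 21.9 in MG. The tdT+ library of LPS mouse 5 carried the most microglia markers of the sdCAMs after LPS, 2148 TMM CPM, with 502 for its sdCAM markers. Ccr2 itself stood at 17.03 to 50.99 TMM CPM in WT sdCAMs after PBS and at 2.33 to 5.21 in Ccr2-/- sdCAMs. After LPS the genotypes overlapped, with 0 to 5.77 in WT and 1.73 to 5.48 in Ccr2-/- sdCAMs. In Ccr2Cre sdCAMs it was 142 to 194 in tdT- and 229.9 to 281 in tdT+ cells after PBS, and 4.45 to 56.2 and 6.62 to 21.2 after LPS. In MG it was at most 8.53 in every genotype.

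Some libraries stood apart in composition. Saa3, an acute-phase gene, took 21.0% to 35.8% of counts in the 3 CTL sdCAM libraries of WT mice and in that of BLZ945 mouse 12, 14.5% to 28.3% in tdT- sdCAMs after LPS and 5.88% to 7.55% in Ccr2-/- sdCAMs after LPS. Of the counts other than Saa3, genes with under 1500 exonic bases (short genes) held 40.9% to 47.2% in those 4 WT libraries. In WT sdCAMs after PBS they held 7.16% to 20.9%. The highest single values of B2m, Psmb9 and Psmb10 lay in the WT CTL sdCAM library of mouse 4, and that of Psmb8 in the tdT- library of LPS mouse 5. A neutrophil list (S100a8, S100a9, Ly6g, Retnlg) summed to 359 to 3259 TMM CPM in the WT CTL sdCAMs and to 571 to 2233 in tdT- sdCAMs after LPS, in both cases with Ly6g and Retnlg at 0, and to 60.9 to 93.9 in Ccr2-/- CTL sdCAMs. Monocyte, T and NK cell, B cell, dendritic cell and endothelium lists summed to at most 93.6, 170.0, 21.8, 56.3 and 38.9 TMM CPM in any sdCAM library, and neuron, astrocyte and oligodendrocyte lists to at most 301, 159 and 523. The part of these features in the results was not tested. In the labels of 6 of the 9 WT sdCAM libraries a correction for immediate early genes (IEG) is named. They are the 4 WT libraries named above for Saa3 and those of PBS mice 9 and 14. Short genes held 20.9% and 15.2% of counts other than Saa3 in PBS mice 9 and 14. Without the label they held 7.16% in PBS mouse 15 and 10.3% and 7.20% in BLZ945 mice 8 and 11. The label thus went with the higher short-gene shares.

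Per kilobase of exon B2m was the most abundant member, as in untreated Ccr2-/- MG, where the mean TMM CPM per kilobase was 4459 for B2m, 249.7 for H2-D1, 109.8 for H2-K1, 109.7 for Tapbp and 0.5 for Nlrc5. The highest group mean of H2-K1, H2-D1, Tap1, Tap2 and Tapbp was found in Ccr2-/- sdCAMs after LPS. For H2-D1 the BLZ945 and CTL groups led with 4377 ± 459 and 4362 ± 468 TMM CPM (SD, n = 3), which do not differ beyond their spread, and the lowest mean was 521 ± 145 in WT MG after PBS. B2m, Psmb9 and Psmb10 had their highest means in WT CTL sdCAMs. Reads of H2-K1 and H2-D1 are uncertain, since the near-identical class I heavy chains can share them.

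**Figure D2:**
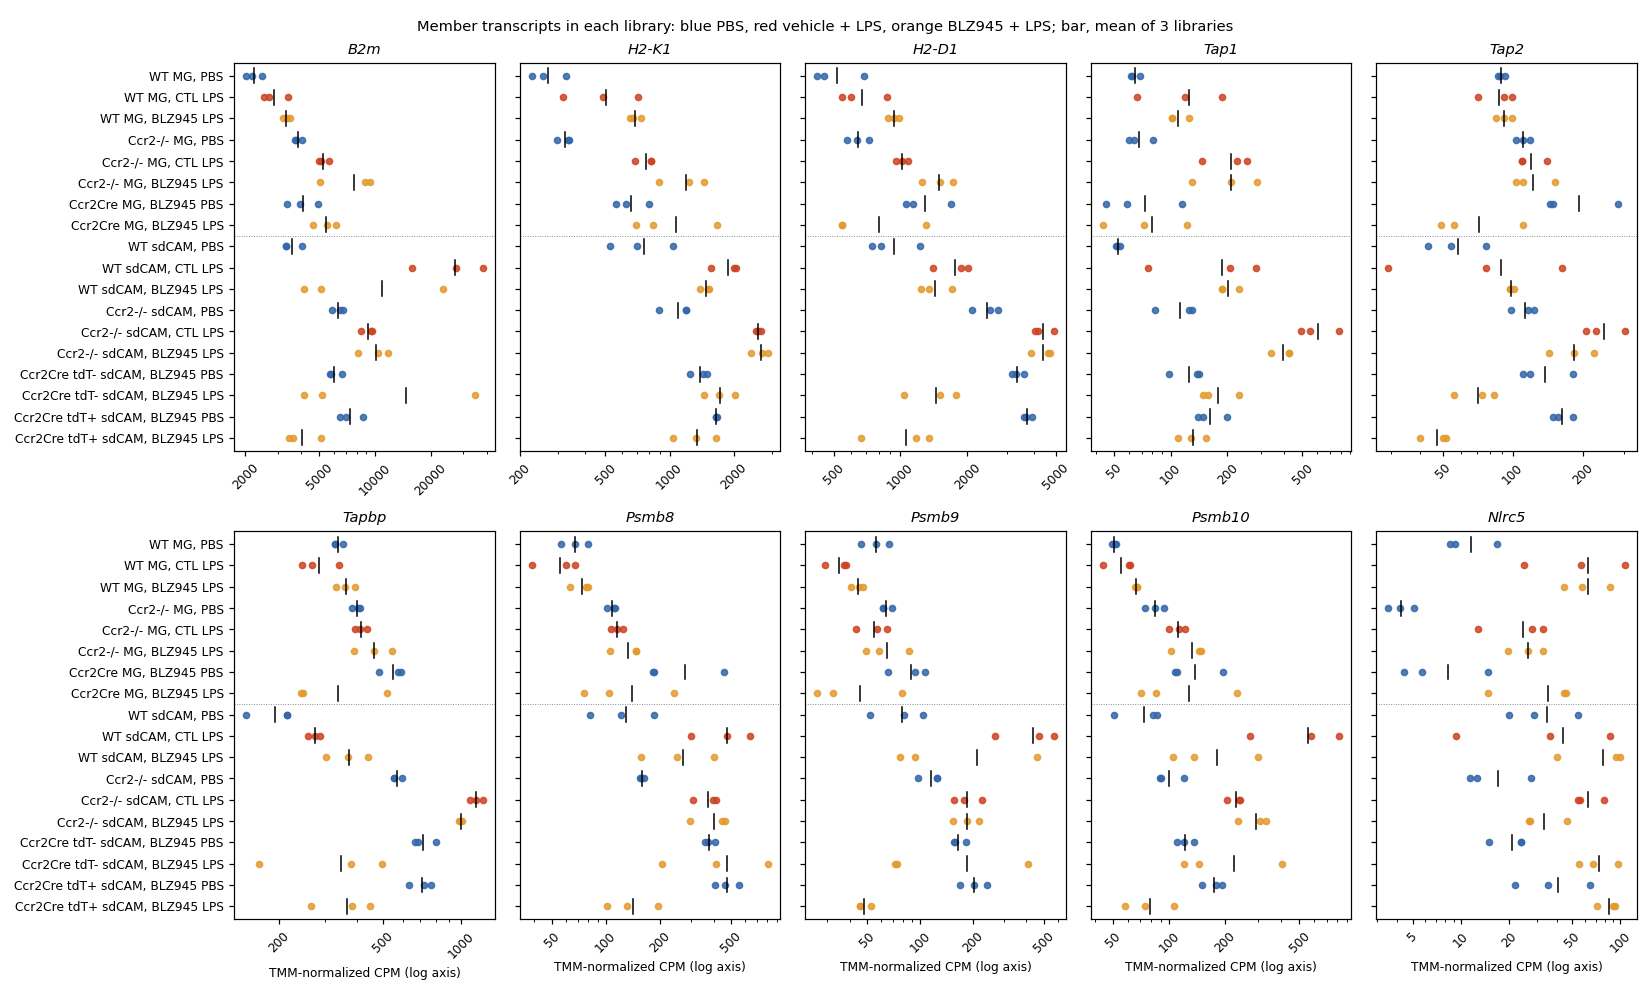
TMM CPM of each member on a log axis in all 54 libraries, with points for libraries, bars for the mean of 3 and colours for PBS, vehicle plus LPS and BLZ945 plus LPS. In Ccr2-/- sdCAMs every vehicle plus LPS library lies above every PBS library for all 10 members. The share of all genes with that separation is not given.

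Before LPS, most members were higher in sdCAMs than in MG of Ccr2-/- mice. The PBS libraries of sdCAMs held 2751, 2527 and 2100.1 TMM CPM of H2-D1, those of MG 639, 719 and 574. H2-K1 stood at 1199.8, 1199 and 894 in sdCAMs and at 335, 337 and 296 in MG. Neither heavy chain overlapped between the cell types, and the log2 differences were 1.93 ± 0.15 SE, adjusted p = 1.1e-08, and 1.76 ± 0.16 SE, adjusted p = 1.4e-07 in edgeR's quasi-likelihood test. Nlrc5 was higher by 2.00 ± 0.40 SE, adjusted p = 0.00092. B2m (0.72, adjusted p = 0.0056), Psmb9 (0.84, adjusted p = 0.0069), Tapbp (0.50, adjusted p = 0.0046) and Psmb8 (0.55, adjusted p = 0.029) were also higher. With 7 of 10 members called higher, against 12.5% of all genes tested, the median log2 difference of the members was 0.72, against 0.00 over all genes.

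Tap1 (0.72, adjusted p = 0.062), Tap2 (0.02, adjusted p = 0.97) and Psmb10 (0.25, adjusted p = 0.37) did not pass. With the mouse as a block, since both cell types came from the same animals, Tap1 passed (0.70, adjusted p = 0.025) and Psmb8 did not (0.55, adjusted p = 0.0596). Psmb8 also lost the call on leaving out any 1 of the 6 libraries. Tap1 and Tap2 encode the subunits of one transporter, yet Tap2 read 123, 117 and 98.2 TMM CPM in sdCAMs and 118, 110.2 and 104 in MG, with overlap.

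In WT mice only H2-K1 passed in this comparison (12% of all genes tested were called higher). Its PBS libraries held 1036, 706 and 524 TMM CPM in sdCAMs and 327, 226 and 256 in MG, which do not overlap, for a log2 difference of 1.52 ± 0.38 SE, adjusted p = 0.012. The call was lost with the IEG label as a covariate (1.15, adjusted p = 0.073) and without the sdCAM library of mouse 9 or the MG library of mouse 14 or 15, over a range of 1.18 to 1.73 for single left-out libraries. Nlrc5 read 54.5, 28.8 and 20.1 in sdCAMs and 16.9, 9.26 and 8.53 in MG, and passed only with the mouse as a block (1.54, adjusted p = 0.028, against 1.61, adjusted p = 0.094 without). The WT sdCAM libraries had the lower depth and the larger spread, a biological coefficient of variation of 0.700 against 0.453 in Ccr2-/- sdCAMs. After PBS their microglia markers summed to 2936 to 5308 TMM CPM, against 1648 to 2465 in Ccr2-/- sdCAMs. The part of these markers was not tested.

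All 10 members rose after LPS in Ccr2-/- sdCAMs. The background of this comparison was 15.8% of 11941 genes called higher, and the members' median log2 change was 1.15, against -0.05 over all genes. Tap1 changed most. Its level was 129, 126 and 82 TMM CPM after PBS and 788, 548 and 492 after LPS, a 5.43-fold change with a log2 value of 2.44 ± 0.23 SE, adjusted p = 6.8e-06. The lowest LPS library was above the highest PBS library for every member. The share of all genes separated in this way is not given, so the separation alone does not set the members apart. An astrocyte list (Aqp4, Gja1, Gfap) summed to 20.6 to 40.4 TMM CPM after PBS and to 125 to 159 after LPS in these groups, and a dendritic cell list (Flt3, Xcr1, Zbtb46) to 32.4 to 37.7 and 7.48 to 11.99. Their part in the result was not tested.

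Of the molecule itself, B2m rose from 6704, 6505 and 5862 to 9624, 8424 and 9540.1 TMM CPM, a log2 change of 0.53 ± 0.13 SE, adjusted p = 0.0095. H2-K1 rose from 1199.8, 1199 and 894 to 2526, 2601 and 2688 (1.25 ± 0.14 SE, adjusted p = 2.6e-05). H2-D1, already the more abundant heavy chain here, rose from 2751, 2527 and 2100.1 to 4145, 4041 and 4899 (0.82 ± 0.13 SE, adjusted p = 0.00054). The light chain, whose starting level was the highest of the 3, thus changed by the smallest factor.

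For peptide supply, Tap2 went from 123, 117 and 98.2 to 303, 206 and 228 TMM CPM (1.13 ± 0.21 SE, adjusted p = 0.0014). The change of Tap2 was smaller than that of its partner Tap1, and the difference between them was not tested. Tapbp, the chaperone that bridges transporter and heavy chain, went from 597, 551 and 553 to 1218, 1082 and 1142 (1.02 ± 0.12 SE, adjusted p = 4.1e-05). These 6 Tapbp values fall into narrow groups, with SDs of 25.7 and 68.4.

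Among the immunoproteasome subunits, Psmb8 (LMP7) rose from 156, 164 and 158 to 397, 307 and 414 TMM CPM (1.22 ± 0.19 SE, adjusted p = 0.00032). Psmb10 (MECL-1) rose from 90.1, 121 and 89.6 to 239, 205 and 238 (1.18 ± 0.18 SE, adjusted p = 0.00037). Psmb9 (LMP2) read 125, 125 and 97.2 and then 223, 155 and 178 (0.68 ± 0.19 SE, adjusted p = 0.019). It changed least of the 3 and lost the call without PBS mouse 5f or LPS mouse 1m, with log2 changes of 0.54 to 0.79 over single left-out libraries. Nlrc5, the transactivator, rose from 27.4, 11.4 and 12.7 to 78.7, 54.3 and 55.8 (1.87 ± 0.37 SE, adjusted p = 0.0022).

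**Figure D3:**
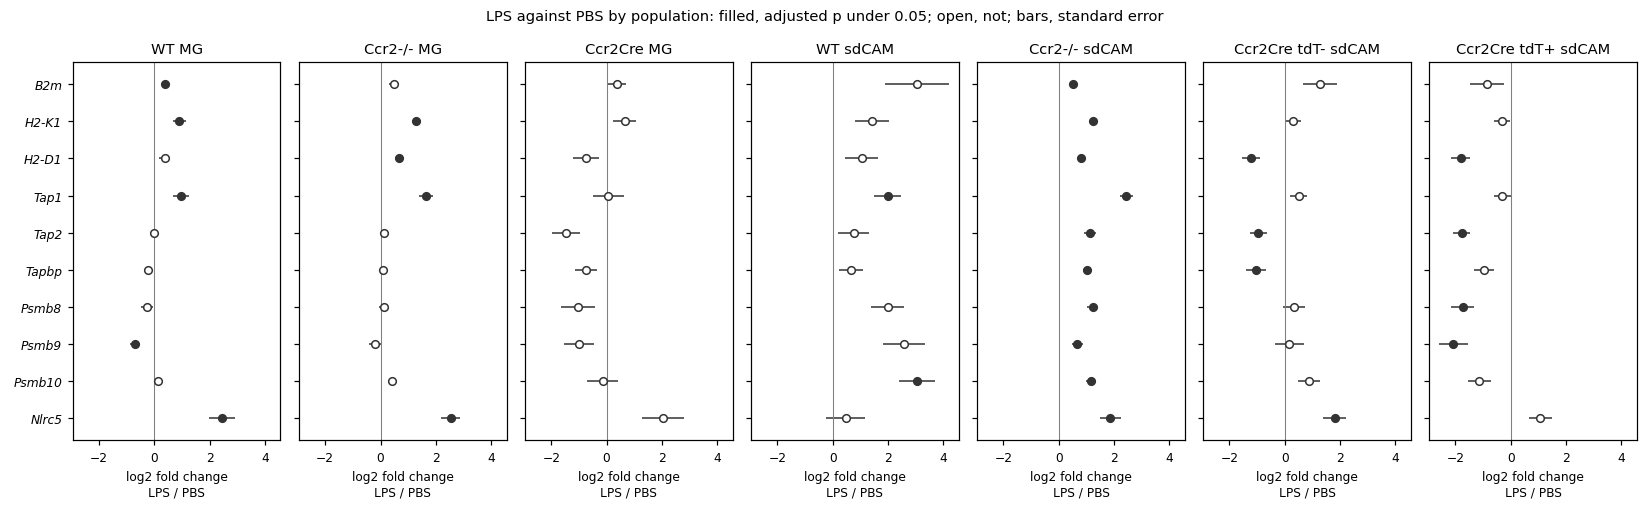
Log2 change after LPS of the 10 members in 7 cell populations (points, bars for the standard error, filled where the adjusted p was under 0.05). All 10 members are filled and to the right of 0 in Ccr2-/- sdCAMs, and H2-D1, Tap2, Psmb8 and Psmb9 are filled and to the left of 0 in tdT+ sdCAMs.

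In MG the response was partial. Nlrc5, Tap1 and H2-K1 rose in both genotypes, and Tap2, Tapbp, Psmb8 and Psmb10 passed in neither. In Ccr2-/- MG 4 members rose, with a background of 19.4% of 11558 genes, and the members' median log2 change was 0.46 against 0.00. In WT MG 4 rose (background 16.7% of 11789) and 1, Psmb9, fell (background 14.2%), with a median of 0.25 against 0.02.

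Nlrc5 had the largest change in MG. In Ccr2-/- MG it stood at 4.17, 5.06 and 3.51 TMM CPM after PBS and at 28, 32.5 and 12.8 after LPS, 5.8-fold (2.54 ± 0.35 SE, adjusted p = 7.5e-05). In WT MG the values were 16.9, 9.26 and 8.53 after PBS and 107, 24.8 and 56.8 after LPS, 5.46-fold (2.45 ± 0.47 SE, adjusted p = 0.0022). The groups did not overlap in either genotype.

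Tap1 rose in Ccr2-/- MG from 60.04, 80.4 and 63.4 to 226, 253 and 146 TMM CPM (1.64 ± 0.26 SE, adjusted p = 0.00028). In WT MG it read 68.5, 61.7 and 62.4 after PBS and 188, 66.1 and 119 after LPS (0.96 ± 0.28 SE, adjusted p = 0.023), where 1 LPS library, of mouse 4, lay within the PBS range. Tap2, by contrast, was at 118, 110.2 and 104 after PBS and 140.0, 109.8 and 109.6 after LPS in Ccr2-/- MG (0.14 ± 0.17 SE, adjusted p = 0.58). Its groups overlapped, as they did in WT MG (-0.02 ± 0.16 SE, adjusted p = 0.94).

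H2-K1 rose in Ccr2-/- MG from 335, 337 and 296 to 821, 690.3 and 817 TMM CPM (1.29 ± 0.16 SE, adjusted p = 3.6e-05) and in WT MG from 327, 226 and 256 to 708, 315 and 486 (0.90 ± 0.24 SE, adjusted p = 0.014). H2-D1 passed in Ccr2-/- MG, from 639, 719 and 574 to 1012, 956 and 1079 (0.68 ± 0.14 SE, adjusted p = 0.0017). In WT MG its value was 0.37 ± 0.21 SE, adjusted p = 0.202. B2m, with 2458, 2025 and 2171 after PBS and 3387, 2536 and 2702 after LPS, passed in WT MG (0.38 ± 0.13 SE, adjusted p = 0.044), and in Ccr2-/- MG its value was 0.48 ± 0.18 SE, adjusted p = 0.054.

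No immunoproteasome subunit was called higher in MG of these genotypes. Psmb9 fell in WT MG from 67, 46.7 and 56.3 to 37, 29.2 and 37.9 TMM CPM (-0.70 ± 0.18 SE, adjusted p = 0.011), without overlap, and its value in Ccr2-/- MG was -0.20 ± 0.21 SE, adjusted p = 0.52. Psmb8 read 101, 113 and 111 after PBS and 125, 115 and 107 after LPS in Ccr2-/- MG (0.11 ± 0.16 SE, adjusted p = 0.62), with overlapping groups. Psmb10 was at 0.43, adjusted p = 0.062, in Ccr2-/- MG and at 0.13, adjusted p = 0.56, in WT MG. In WT MG some calls rested on single libraries: B2m (0.26 to 0.46) was lost without LPS mouse 1 or 6 or PBS mouse 14 or 15, H2-K1 (0.59 to 1.15) without PBS mouse 14 or 15, and Tap1 (0.55 to 1.27) without LPS mouse 1 or 6 or any 1 of the 3 PBS mice, so that 2 to 5 members passed.

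Whether the LPS change differed between cell types was tested in the interaction of cell type and LPS. In Ccr2-/- mice 3 members changed more in sdCAMs than in MG, with 3.5% of 12890 genes called in that direction. Tapbp differed by 0.98 ± 0.17 SE, adjusted p = 0.00097, Psmb8 by 1.15 ± 0.25 SE, adjusted p = 0.0054, and Tap2 by 1.02 ± 0.28 SE, adjusted p = 0.027, on the log2 scale. These are 3 of the 4 members that passed in neither LPS comparison of MG. Psmb10, the remaining one, was at 0.78, adjusted p = 0.065, and Psmb9 at 0.91, adjusted p = 0.071. The call of Tap2 (0.86 to 1.14) was lost without the MG library of PBS mouse 1m or 3m or LPS mouse 2m or 4f, or the sdCAM library of PBS mouse 5f or LPS mouse 1m. H2-K1 (-0.01, adjusted p = 1.00), H2-D1 (0.18, adjusted p = 0.702), B2m (0.09, adjusted p = 0.91) and Nlrc5 (-0.63, adjusted p = 0.57) did not pass.

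In WT mice the same interaction was called for Psmb9 (3.20 ± 0.75 SE, adjusted p = 0.043) and Psmb10 (2.82 ± 0.60 SE, adjusted p = 0.029), with a background of 0.434%. With the mouse as a block neither passed (Psmb9 3.20, adjusted p = 0.053, Psmb10 2.76, adjusted p = 0.065). Psmb9 (2.94 to 3.47) lost the call in 11 of the 12 fits without 1 library, all but that without sdCAM LPS mouse 1, and Psmb10 (2.46 to 3.14) in 9. The part of the Saa3 and short-gene shares of the CTL sdCAM libraries, given above, was not tested.

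In WT sdCAMs LPS changes were large but variable. Tap1 and Psmb10 passed, against 3.7% of 10504 genes called higher, and the members' median log2 change was 1.71 against -0.08. Psmb10 read 82.1, 86 and 50.7 TMM CPM after PBS and 271, 822 and 576 after LPS (3.05 ± 0.64 SE, adjusted p = 0.021). Tap1 read 53.7, 51.5 and 51.6 after PBS and 283, 75.8 and 206 after LPS (1.99 ± 0.50 SE, adjusted p = 0.041). Neither overlapped between the groups. Each lost the call in 5 of the 6 fits without 1 library, with 1.61 to 2.37 for Tap1 and 2.69 to 3.39 for Psmb10, so 0 or 1 members then passed.

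B2m had a high LPS value and wide error. It stood at 4041, 3302 and 3334 TMM CPM after PBS and at 15856, 38200.2 and 27313 after LPS (3.06 ± 1.15 SE, adjusted p = 0.13). The groups did not overlap, and the LPS values were spread widely among themselves. Psmb9 (2.59 ± 0.75 SE, adjusted p = 0.062) and Psmb8 (1.99 ± 0.59 SE, adjusted p = 0.066) were close to the threshold. Nlrc5 read 54.5, 28.8 and 20.1 after PBS and 85.7, 9.32 and 36.2 after LPS (0.47 ± 0.70 SE, adjusted p = 0.72), which overlapped. Among only the 2 groups compared 5 members were higher (background 8.68%), and with the IEG label as a covariate 4 were (background 6.81%), Tap1, Psmb8, Psmb9 and Psmb10.

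Between genotypes before LPS, B2m (0.77 ± 0.17 SE, adjusted p = 0.0041), Psmb10 (0.71 ± 0.17 SE, adjusted p = 0.0062) and Psmb8 (0.66 ± 0.19 SE, adjusted p = 0.023) were higher in Ccr2-/- than in WT MG, where 9% of 12423 genes were called higher. Nlrc5 was lower (-1.45 ± 0.47 SE, adjusted p = 0.038, background 8.47%). B2m stood at 4029.8, 3775 and 3699.9 TMM CPM in Ccr2-/- and 2458, 2025 and 2171 in WT MG, which do not overlap, and Nlrc5 at 4.17, 5.06 and 3.51 in Ccr2-/- MG and 16.9, 9.26 and 8.53 in WT MG. The call of Psmb8 (0.52 to 0.79) was lost without WT mouse 14 or 15 or Ccr2-/- mouse 3m or 5f, and that of Nlrc5 (-1.66 to -1.08) without WT mouse 9 or 14 or any 1 of the Ccr2-/- mice. The genotypes were deposited in separate tables, so genotype and table cannot be told apart. The paper describes a ComBat-seq batch correction for its WT and Ccr2-/- data, and no such step was made here.

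In sdCAMs before LPS, Tapbp (1.59 ± 0.30 SE, adjusted p = 0.0039) and H2-D1 (1.42 ± 0.34 SE, adjusted p = 0.016) were higher in Ccr2-/- mice, against 3.82% of 13258 genes. Tapbp read 597, 551 and 553 TMM CPM in Ccr2-/- and 213, 149 and 214 in WT sdCAMs. The groups did not overlap for Tapbp, nor for H2-D1, whose WT libraries held 1228, 818 and 746. H2-D1 (1.26 to 1.82) lost the call without WT mouse 14 or Ccr2-/- mouse 1m or 3m. With the IEG label as a covariate B2m (1.65, adjusted p = 0.025) and Psmb9 (1.75, adjusted p = 0.011) passed too (background 3.89%). Microglia markers summed to 2936 to 5308 TMM CPM in WT and to 1648 to 2465 in Ccr2-/- sdCAMs after PBS. Total counts of these libraries were 1929070 to 3049028 in WT and 8124128 to 8929948 in Ccr2-/- mice. The part of either in the difference was not tested.

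The LPS change itself was not called different between genotypes for any member in edgeR's quasi-likelihood test, in MG or in sdCAMs, where the share of all genes called was 0% in both. At an unadjusted p under 0.05 the members numbered 0 in MG and 3 in sdCAMs, and DESeq2 called 0 and 1, B2m. Of all genes, 503 of 12423 in MG and 1792 of 13258 in sdCAMs had an unadjusted p under 0.05. These designs do not show that the genotypes responded alike.

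In Ccr2Cre mice the controls had also received BLZ945 and tamoxifen. Total counts of the sdCAM libraries were 8652557 to 9850283 after PBS and 2060240 to 8751293 after LPS. In their MG no member passed in edgeR's quasi-likelihood test (1.08% of 10882 genes were called in either direction). At an unadjusted p under 0.05 there were 2 members, with 1510 of 10882 genes in all, and DESeq2 called 0. Nlrc5 read 14.8, 5.68 and 4.38 TMM CPM after PBS and 14.9, 44.5 and 45.4 after LPS (2.04 ± 0.78 SE, adjusted p = 0.29). Tap2 read 144, 284 and 148 after PBS and 110.2, 49.3 and 55.9 after LPS (-1.47 ± 0.50 SE, adjusted p = 0.22). The Nlrc5 and Tap2 groups were separated, the former upward and the latter downward.

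One library of each MG group differed from the other two. That of PBS mouse 175 held 789.5 TMM CPM of the microglia gene P2ry12, against 7859 and 9829, and 12213 of Tmem119, against 5152 and 6025. Its microglia markers summed to 15372, close to the 15507 and 18728 of the others, and its Psmb8 and Tap2 were the highest of the group. LPS mouse 1 had the highest H2-D1 (1308, 543 and 546 TMM CPM after LPS) and Psmb8 (241, 104 and 75.6) of its group. Without PBS mouse 175 and LPS mouse 1, an alternative chosen after the values were seen, 5 members were lower after LPS, against 6.14% of 11225 genes called lower in that fit, among them Tapbp (-1.09, adjusted p = 0.017), H2-D1 (-0.99, adjusted p = 0.013) and Tap2 (-1.45, adjusted p = 0.016), with Psmb8 (-1.01, adjusted p = 0.049) and Psmb9 (-1.43, adjusted p = 0.045).

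In Ccr2Cre sdCAMs H2-D1 and Tap2 fell after LPS in both reporter fractions. The tdT+ libraries held 3674, 3579 and 3918 TMM CPM of H2-D1 after PBS and 1178, 663 and 1343 after LPS (-1.81 ± 0.34 SE, adjusted p = 0.0027). The tdT- libraries held 3161, 3296 and 3580.4 after PBS and 1508, 1780.4 and 1038 after LPS (-1.22 ± 0.34 SE, adjusted p = 0.014). In neither fraction did the groups overlap.

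Tap2 fell from 156, 149 and 182 to 51.7, 40.01 and 50.2 TMM CPM in tdT+ cells (-1.78 ± 0.31 SE, adjusted p = 0.0018) and from 111, 119 and 182 to 73.9, 83.1 and 55.6 in tdT- cells (-0.95 ± 0.31 SE, adjusted p = 0.031). Tapbp fell in tdT- cells from 684, 665 and 801 to 496, 167 and 379.6 (-1.05 ± 0.36 SE, adjusted p = 0.042), and was -0.95 ± 0.36 SE, adjusted p = 0.095 in tdT+ cells. Both genes act at peptide loading, and for neither did LPS and PBS libraries overlap. H2-K1, in contrast, was -0.30 ± 0.29 SE, adjusted p = 0.54, in tdT+ and 0.31 ± 0.29 SE, adjusted p = 0.46, in tdT- cells.

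Psmb8 and Psmb9 fell in tdT+ cells, where 4 members in all were lower against 6% of 12708 genes. Psmb8 read 554, 408 and 467 TMM CPM after PBS and 196, 101 and 131 after LPS (-1.74 ± 0.42 SE, adjusted p = 0.013). Psmb9 read 239.6, 169 and 201 after PBS and 46, 45.8 and 52.7 after LPS (-2.07 ± 0.53 SE, adjusted p = 0.018). Their groups did not overlap. T and NK cell markers (Cd3e, Cd3g, Trac, Nkg7, of which 3 were in the tables) summed to 116, 20.3 and 104 TMM CPM in these libraries after PBS and to 4.07, 5.92 and 0.31 after LPS. Their part in the fall was not tested. The calls depended on LPS mouse 7 for Psmb8 (-2.04 to -1.56 without single libraries) and on LPS mouse 1 or 7 or PBS mouse 174 for Psmb9 (-2.20 to -1.95).

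In tdT- cells Nlrc5 rose, from 23.9, 15 and 23.7 to 96.4, 55.2 and 67.6 TMM CPM (1.80 ± 0.43 SE, adjusted p = 0.0056, background 14.7%), as the only member called higher, while 3 were lower (background 12.4%). Nlrc5 in tdT+ cells was 1.07 ± 0.42 SE, adjusted p = 0.11. The transactivator and H2-D1 thus moved in opposite directions within the tdT- fraction. Psmb9 in tdT- cells read 181, 157 and 155 after PBS and 74.6, 409 and 72 after LPS, where 1 LPS library, of mouse 5, was far above the others. That library also held the highest B2m of its group, with 5179, 34812 and 4150.1 after LPS against 6626, 5771 and 5714 after PBS (1.28 ± 0.61 SE, adjusted p = 0.13).

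Leaving out both LPS libraries of mouse 5, chosen after the values were seen, turned Psmb9 in tdT- cells from 0.17 to -1.20, adjusted p = 0.0031, and B2m from 1.28 to -0.40, adjusted p = 0.11. Tapbp and Tap2 in tdT- cells lost their calls on leaving out certain single libraries, over -1.43 to -0.74 for Tapbp (LPS mouse 5 or 7, or any PBS mouse) and -1.11 to -0.75 for Tap2 (LPS mouse 7 or PBS mouse 177). Without mouse 5, 7 members were lower in tdT+ cells, against 9.5% of 13367 genes, B2m (-1.07, adjusted p = 0.0011), Tapbp (-0.78, adjusted p = 0.019) and Psmb10 (-1.10, adjusted p = 0.019) being added. Another limit is the naming of 2 columns, LPS mouse 1 tdT- and LPS mouse 7 tdT+, whose index numbers conflict with the labels. With them exchanged, 2 members were lower in tdT+ cells (background 3.22%) and 1 was higher in tdT- cells (background 6.55%).

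The average change of both fractions depends less on that exchange. H2-D1 (-1.51 ± 0.24 SE, adjusted p = 0.00019), Tap2 (-1.37 ± 0.22 SE, adjusted p = 0.00022) and Tapbp (-1.002 ± 0.26 SE, adjusted p = 0.0071) were lower, against 15% of genes, and Nlrc5 was higher (1.43 ± 0.30 SE, adjusted p = 0.0018), against 18.5%. With the mouse as a block Psmb8 (-0.84, adjusted p = 0.032) and Psmb9 (-1.15, adjusted p = 0.027) passed as well. That fit used limma's voom with a correlation within mice, so the test changed along with the block. Without mouse 5, 6 members were lower and 1 higher, each against 17.9% of genes, and B2m turned from 0.21 to -0.74, adjusted p = 0.00051. H2-D1, Tap2 and Tapbp thus changed upward in Ccr2-/- sdCAMs and downward in Ccr2Cre sdCAMs. The difference between these 2 comparisons was not tested, and their controls differ, being untreated in the former and treated with BLZ945 and tamoxifen in the latter.

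tdT+ and tdT- sdCAMs were compared directly. After PBS no member passed in edgeR's quasi-likelihood test (0.0236% of genes were called), and DESeq2 called 0. At an unadjusted p under 0.05 there was 1 member, with 566 of 12708 genes in all. After LPS, Psmb8 (-1.74 ± 0.42 SE, adjusted p = 0.014), Psmb9 (-1.94 ± 0.53 SE, adjusted p = 0.028) and Psmb10 (-1.50 ± 0.42 SE, adjusted p = 0.031) were lower in tdT+ than in tdT- cells, against 6.92% of genes. Psmb8 held 196, 101 and 131 TMM CPM in tdT+ and 414, 811 and 205 in tdT- cells. Psmb10 held 106, 74 and 57.6 in tdT+ cells and 145, 404 and 120.0 in tdT- cells. All tdT- libraries were above all tdT+ libraries, and the tdT- library of mouse 5 was the highest. The neutrophil list summed to 8.31 to 47.2 TMM CPM in tdT+ and to 571 to 2233 in tdT- cells after LPS, with Ly6g and Retnlg at 0 in both. Saa3 took 0.68% to 2.74% of counts in tdT+ and 14.5% to 28.3% in tdT- cells. Microglia markers summed to 2148 TMM CPM in the tdT+ library of LPS mouse 5, whose sdCAM markers summed to 502. They summed to 233 and 270 in the other tdT+ libraries and to 142 to 247 in tdT- cells after LPS. The part of these features in the difference was not tested.

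These calls depended on certain choices. Psmb9 did not pass with the mouse as a block (-1.41, adjusted p = 0.089). No member passed without the libraries of mouse 5, in edgeR's quasi-likelihood test (8.93% of genes were called), nor with the 2 columns exchanged, where 0 of all 12708 genes passed. Over single left-out libraries 0 to 4 members passed, with 0 without tdT+ LPS mouse 5 or 7 or tdT- LPS mouse 5. The log2 differences then ranged from -2.05 to -1.10 for Psmb8, from -2.26 to -0.59 for Psmb9 and from -1.75 to -0.73 for Psmb10. For the interaction of tdT and LPS 4 members had an unadjusted p under 0.05, with 2483 of 12708 genes in all. That interaction was called for 0 members (5.17% of all genes) and for 3 in DESeq2. Its values were -2.07, adjusted p = 0.053, for Psmb8, -2.01, adjusted p = 0.0598, for Psmb10 and -2.24, adjusted p = 0.094, for Psmb9.

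Earlier BLZ945 treatment was compared with vehicle among mice given LPS. No member passed in any of the 4 comparisons in edgeR's quasi-likelihood test. The share of all genes called was 0.0763% in WT MG, 0% in WT sdCAMs, 0.0173% in Ccr2-/- MG and 0% in Ccr2-/- sdCAMs. At an unadjusted p under 0.05 there were 2, 1, 3 and 3 members, and DESeq2 called 0 in each. Of all genes, 776 of 11789, 758 of 10504, 769 of 11558 and 998 of 11941 had an unadjusted p under 0.05. In Ccr2-/- MG H2-K1 read 821, 690.3 and 817 TMM CPM after vehicle and 1447, 1238 and 894 after BLZ945 (0.61 ± 0.16 SE, adjusted p = 0.46), with the groups separated. Without BLZ945 mouse 4f, which had the lowest level of both, H2-K1 (0.77, adjusted p = 0.031) and B2m (0.78, adjusted p = 0.021) passed. Leaving out the lowest BLZ945 library raises the difference by itself, so that fit does not add to the full one. The share of all genes called in it is not given.

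In Ccr2-/- sdCAMs Nlrc5 read 78.7, 54.3 and 55.8 TMM CPM after vehicle and 27.3, 46.2 and 26.6 after BLZ945 (-0.94 ± 0.36 SE, adjusted p = 0.53), and Tap1 788, 548 and 492 after vehicle and 424, 423 and 341 after BLZ945 (-0.65 ± 0.22 SE, adjusted p = 0.49). Both were lower in all 3 BLZ945 libraries than in any vehicle library. In WT sdCAMs Psmb10 read 271, 822 and 576 after vehicle and 104, 135 and 301 after BLZ945 (-1.698 ± 0.61 SE, adjusted p = 0.69), with overlap. The library of BLZ945 mouse 12 had the Saa3 share of the vehicle libraries. Without it, Psmb9 (-2.45, adjusted p = 0.024) and Psmb10 (-2.31, adjusted p = 0.037) were called lower after BLZ945. The BLZ945 libraries left, of mice 8 and 11, lacked the IEG label, and all 3 vehicle libraries carried it. Their Saa3 and short-gene shares were also below those of every vehicle library. In that fit BLZ945 therefore cannot be told apart from the label or these shares. The share of all genes called there is not given.

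Each immunoproteasome subunit takes the place of a constitutive one, Psmb8 that of Psmb5, Psmb9 that of Psmb6 and Psmb10 that of Psmb7. The log2 ratio of their counts within a library (pseudocount 0.5, not corrected for transcript length) does not depend on scaling. In WT MG Psmb8:Psmb5 was 2.11 ± 0.31 after PBS and 1.37 ± 0.11 after LPS (SD, n = 3) and in Ccr2-/- MG 2.13 ± 0.19 after PBS and 1.47 ± 0.22 after LPS. In Ccr2-/- sdCAMs it was 2.71 ± 0.19 after PBS and 2.86 ± 0.22 after LPS. LPS and PBS libraries were separated, downward, in MG of all 3 lines and in WT sdCAMs, and overlapped in Ccr2-/- and Ccr2Cre sdCAMs.

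Psmb9:Psmb6 was lower in every LPS library than in every PBS library in 6 of the 7 populations. The mean differences there were -0.75 in Ccr2-/- MG, -0.99 in WT MG, -1.17 in Ccr2Cre MG, -1.12 in tdT+, -1.53 in WT and -1.59 in tdT- sdCAMs. Ccr2-/- sdCAMs were the exception, with 0.08 ± 0.28 after PBS and -0.25 ± 0.30 after LPS. Psmb10:Psmb7 was separated downward in WT MG and upward in WT sdCAMs. Exonic bases were 3381 for Psmb8 and 899 for Psmb5, 3660 for Psmb9 and 1872 for Psmb6, and 1705 for Psmb10 and 3421 for Psmb7. In WT sdCAMs each ratio thus moved toward the shorter gene, and Psmb10:Psmb7 in WT MG toward the longer. Short genes held 40.9% to 45.4% of counts other than Saa3 in WT CTL sdCAMs and 7.16% to 20.9% in those after PBS. The part of gene length in these ratios was not tested. Exact two-sided permutation tests of 3 libraries against 3 cannot go below p = 0.1. Each separated pair gave that p, and 0.175 after Benjamini-Hochberg adjustment over 21 tests, so none passed.

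The constitutive subunits themselves rose in part. In Ccr2-/- sdCAMs the log2 change was 1.05 (adjusted p = 0.0032) for Psmb5, 0.99 (adjusted p = 0.00081) for Psmb6 and 1.14 (adjusted p = 0.0089) for Psmb7 in edgeR's quasi-likelihood test. In Ccr2-/- MG Psmb5 changed by 0.78 (adjusted p = 0.0044) and Psmb6 by 0.54 (adjusted p = 0.011), while none of the 3 passed in WT MG. WT sdCAMs had larger values with wider error, 3.73 (adjusted p = 0.0302) for Psmb5, 4.23 (adjusted p = 0.041) for Psmb6 and 1.21 (adjusted p = 0.26) for Psmb7. The part of their short-gene shares in these values was not tested. In tdT- sdCAMs Psmb6 rose by 1.91 (adjusted p = 0.026), with 1.67 (adjusted p = 0.086) for Psmb5, and none passed in tdT+ sdCAMs or Ccr2Cre MG. In Ccr2-/- MG constitutive subunits thus rose without a call for the immunoproteasome subunits, and in Ccr2-/- sdCAMs both sets rose.

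Tap1 and Psmb9 share a promoter region on opposite strands, shown above. Their count ratio, a comparison added after the values were seen, was higher after LPS in MG and in some sdCAMs. The log2 ratio Tap1:Psmb9 was 0.07 ± 0.30 after PBS and 1.90 ± 0.13 after LPS in Ccr2-/- MG. It was 0.19 ± 0.19 after PBS and 1.72 ± 0.59 after LPS in WT MG. In Ccr2-/- sdCAMs, where both genes rose, it was -0.06 ± 0.16 after PBS and 1.704 ± 0.20 after LPS. LPS and PBS libraries were also separated upward in Ccr2Cre MG (1.21) and tdT+ sdCAMs (1.75), where the exact permutation test (two-sided) gave p = 0.1 for each separated population, its minimum, and 0.14 after adjustment over 7 tests. In WT sdCAMs (-0.80) and tdT- sdCAMs (0.84) they overlapped.

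**Figure D4:**
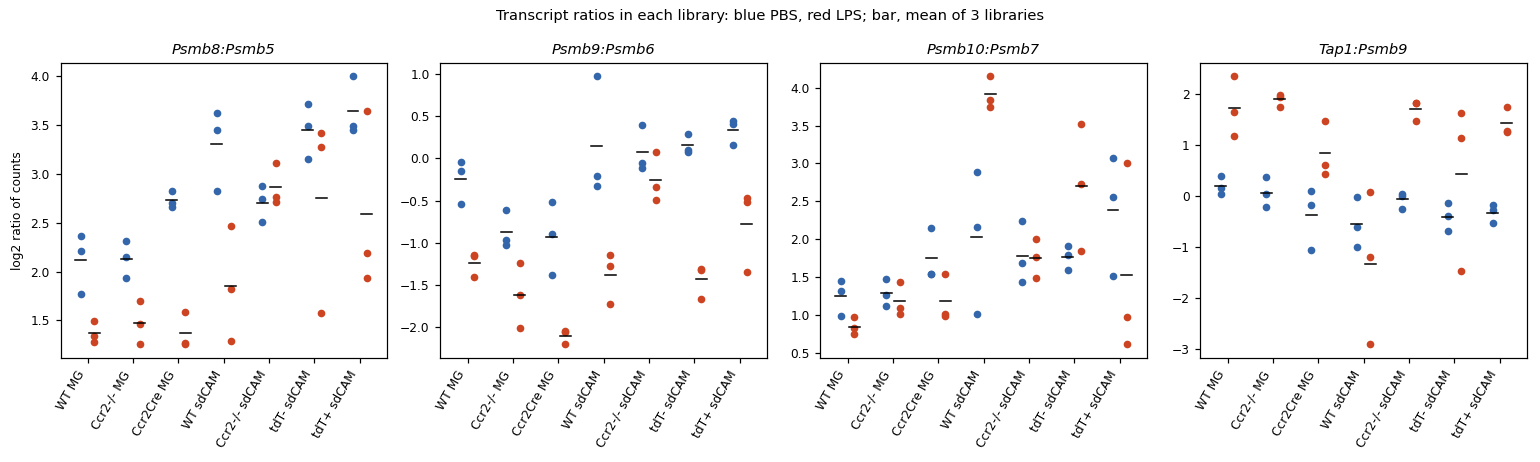
Log2 ratio of counts of paired genes in each PBS (blue) and LPS (red) library of 7 populations, with bars for the mean of 3. Psmb9:Psmb6 lies lower after LPS without overlap in 6 populations, and Tap1:Psmb9 lies higher without overlap in 5.

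Of 59 further genes of the pathway, 30 rose and 3 fell among 54 tested after LPS in Ccr2-/- sdCAMs. In Ccr2-/- MG 27 rose and 3 fell of 54, and in WT MG 16 rose and 5 fell of 54. The median log2 change of the list was 0.82, 0.61 and 0.32 in these populations, against -0.05, 0.00 and 0.02 over all genes tested. Of all genes, 15.8%, 19.4% and 16.7% were called higher and 13.1%, 15.5% and 14.2% lower there. WT sdCAMs had 9 higher and 1 lower of 51, against 3.7% and 2.62% of all genes. In tdT- sdCAMs 14 were higher and 11 lower of 53, against 14.7% and 12.4%. In tdT+ sdCAMs 4 were higher and 4 lower of 53, near the 7.63% and 6% of all genes. In Ccr2Cre MG 0 of 53 passed in edgeR's quasi-likelihood test, with 6 at an unadjusted p under 0.05, against 1510 of 10882 genes in all. The other subunits of the proteasome core rose most regularly, 11 of 11 in Ccr2-/- sdCAMs, 10 in Ccr2-/- MG and 8 in WT MG. Psma6 and Psmb3 of that group rose in 5 of the 7 populations each.

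Among activators, Psme2 (PA28 beta), a subunit of the regulatory cap that works with the immunoproteasome, rose by 2.56 (adjusted p = 2.4e-07) in Ccr2-/- sdCAMs, 1.42 (adjusted p = 8.1e-05) in Ccr2-/- MG and 0.91 (adjusted p = 0.015) in WT MG on the log2 scale. Psme1, its partner, rose by 1.35 (adjusted p = 8.6e-05), 1.08 (adjusted p = 9.2e-05) and 0.84 (adjusted p = 0.0043). In WT and Ccr2-/- MG, therefore, the genes of this cap rose while Psmb8, Psmb9 and Psmb10 were not called higher. Lnpep, an aminopeptidase that trims peptides, rose in 5 populations, by 1.28 (adjusted p = 0.0042) in Ccr2-/- sdCAMs and 3.10 (adjusted p = 0.000499) in tdT+ sdCAMs.

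Irf1, a factor of the interferon response, rose in MG of both batch 1 lines and in Ccr2-/- sdCAMs. Its log2 change was 1.699 (adjusted p = 0.00039) in Ccr2-/- MG, 1.12 (adjusted p = 0.021) in WT MG and 1.06 (adjusted p = 0.0068) in Ccr2-/- sdCAMs. Irf1 fell in tdT- sdCAMs, by a log2 change of -1.16 (adjusted p = 0.049). Other class I heavy chains were mixed, with 6 higher and 3 lower of 14 in Ccr2-/- sdCAMs, 2 and 2 in Ccr2-/- MG, 0 and 3 in WT MG and 2 and 5 of 13 in tdT- sdCAMs.

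Across the 18 group means the members followed one another unevenly. Pearson's r of log2 levels was 0.95 for B2m and Psmb10 and 0.90 for Psmb8 and Psmb9, with a median of 0.60 over all pairs. Nlrc5 was the member least like the rest, with -0.30 against Tap2 and -0.09 against Tapbp. Of 8705 genes, those most like the members' mean pattern were Tmem242 (0.95), Arpc1b (0.94), Hdgf (0.92), Ly6e (0.92), Npc2 (0.92), Bag1 (0.92), Ap1s1 (0.91) and H3f3b (0.91). These are descriptions over 18 groups, which share libraries, depth and scaling between genes.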

How the data were processed

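Bulk RNA-seq counts per gene were deposited in 3 tables, 1 per mouse line. The authors amplified cDNA from sorted cells (SMARTer, Nextera XT, no molecular identifiers) and, per the submitters' processing notes, used bcl2fastq 2.20, STAR 2.7.11a and featureCounts 2.0.8, with DESeq2 1.46.0 downstream. The build is named only as mm10 or GRCm39 and the strand setting is not given in the sources used here, so overlapping genes cannot be separated. Groups came from the labels. Titles of the Ccr2-/- LPS libraries conflict with the labelled cell type and with the library names. The labelled cell type was used, and marker sums go with it.

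Counts were tested with edgeR 4.0.16 (quasi-likelihood F-test, filterByExpr, TMM within each fit, two-sided) in R 4.3.3, with Benjamini-Hochberg adjustment over all genes tested and a threshold of 0.05. Alternatives were DESeq2 1.42.0, other scaling and low-count filters, the mouse as a block, IEG labels and single libraries left out. The block was fitted in edgeR, except for the average of Ccr2Cre sdCAMs, where limma 3.58.1 (voom, correlation within mice) was used. Mouse numbers pair libraries because several cell types came from 1 animal (36 pairs, correlation of deviations -0.127 to 0.330, 15 over 0.1). No 2 replicates agreed within sampling noise (lowest chi-square per degree of freedom 7.49). Each library of a group came from a separate mouse. In fits with 1 library per mouse, p-values measure the spread between these mice. Fits that hold several populations of the same mice (cell type, tdT, their interactions and Ccr2Cre sdCAMs) took their libraries as independent. There p-values measure the spread between libraries with the pairing left out.

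Total counts ranged from 1705930 to 11330781 per library. Exon lengths were those of GENCODE M21, used only for levels per kilobase, shares of short genes and the lengths given with the ratios. Promoters were RefSeq windows matched by symbol. Named genes were the 10 members and 7 fixed pathway genes, further pathway genes that passed the same way in at least 5 of 7 LPS comparisons, and the 8 genes most like the members. One of the fixed pathway genes is not reported here. Members and lists were chosen with earlier results of these data known.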

Additional observations from a re-analysis of the deposited data

Results flagged for a closer look

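The LPS change of 5 members differed between cell types by the interaction of cell type and LPS in edgeR's quasi-likelihood test. In Ccr2-/- mice the log2 change was larger in sdCAMs than in MG by 1.15 for Psmb8, by 1.02 for Tap2 and by 0.98 for Tapbp. In WT mice it was larger in sdCAMs by 3.20 for Psmb9 and by 2.82 for Psmb10, and neither of these passed with the mouse as a block.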

How the results depend on the processing

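Counts of members called, with the reported count in brackets, moved as follows. The share of all genes called in an alternative fit is given only where stated above. The counts of this section alone do not show whether members moved more than other genes. With DESeq2 they were 6 for LPS in WT sdCAMs (2), 3 for the interaction of tdT and LPS (0), 4 for cell type in WT mice (1), 5 for the interaction of cell type and LPS in WT (2) and in Ccr2-/- mice (3), and 1 for the interaction of genotype and LPS in sdCAMs (0). With no filter on low counts they were 3 and 1 for BLZ945 in Ccr2-/- MG and sdCAMs (0), 4 for tdT and LPS, 2 for cell type in WT, 5 for the cell type interactions of WT and Ccr2-/- mice, and 1 for the genotype interaction in sdCAMs. Median-of-ratios size factors gave 2 in tdT- cells (4) and 2 for tdT and LPS, and the low-count rule of the study gave 1 for the latter. A further limit of 1 on the log2 change left 1 for LPS in WT MG (5), 3 for cell type in Ccr2-/- (7) and 1 for genotype in MG (4). The limit also removed B2m (0.53), H2-D1 (0.82) and Psmb9 (0.68) for LPS in Ccr2-/- sdCAMs. It removed H2-D1 (0.68) for LPS in Ccr2-/- MG, Tap2 (-0.95) in tdT- cells and Tapbp (0.98) in the Ccr2-/- cell type interaction. The IEG label as a covariate gave 4 for LPS in WT sdCAMs, 0 for cell type in WT and 4 for genotype in sdCAMs (2). Libraries with that label alone gave 4, and only the 2 groups compared 5 in WT sdCAMs and 2 in tdT- cells. Exchange of 2 columns gave 2 in tdT+ (4), 1 in tdT- and 0 for tdT after LPS (3), also with the mouse as a replicate block, and moved Psmb9:Psmb6 in tdT- cells from -1.59 to -1.31. The mouse as a block gave 2 for cell type in WT, 0 for its interaction in WT and 2 for tdT after LPS. In limma's voom it gave 6 for the average of Ccr2Cre sdCAMs (4). The block changed no call of a member beyond those given with the results. Alternatives chosen after seeing the data gave 5 in Ccr2Cre MG without PBS mouse 175 and LPS mouse 1 (0), and without both LPS libraries of mouse 5 they gave 7 in tdT+, 7 for the average and 0 for tdT after LPS. B2m in that average was then -0.74, and ranged from -0.64 without tdT- LPS mouse 5 alone to 0.39 over single left-out libraries, and Psmb9 in tdT- cells was -1.20, ranging from -1.20 to 0.49.

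Without single libraries the counts ranged from 2 to 5 for LPS in WT MG, 0 to 1 in WT sdCAMs, 9 to 10 in Ccr2-/- sdCAMs, 2 to 5 in tdT+, 2 to 4 in tdT- and 4 to 7 in their average, and stayed at 4 in Ccr2-/- MG and 0 in Ccr2Cre MG. They ranged from 0 to 2 for BLZ945 in WT sdCAMs and in Ccr2-/- MG, 0 to 4 for tdT after LPS, 0 to 3 for tdT and LPS, 0 to 2 and 6 to 7 for cell type in WT and Ccr2-/-, 0 to 3 and 2 to 4 for its interactions, 2 to 3 and 1 to 2 for genotype in MG and sdCAMs. The cause of these moves was not tested. In all, 577 single called values kept their side of the threshold and 118 did not. Size factors moved the median of all genes by 0.19 in tdT- cells, 0.11 in the average, -0.13 for tdT after LPS, -0.17 for tdT and LPS, 0.16 for the WT cell type interaction and -0.18 for the genotype interaction in sdCAMs. No called member changed sign under them. Total counts were lowest in WT sdCAMs, and the part of depth in these moves was not tested.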
